A study of Mus musculus with 4 samples.

Results

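CHD4 intervals that lie in introns were described here. CHD4 supplies the ATP-driven remodelling activity of the nucleosome remodelling and deacetylase complex (NuRD). Each interval is a stretch of the mouse genome where CHD4 signal was called above an IgG control. The members are the peaks that the authors' annotation places in an intron, with peaks of the same boundaries joined. They number 493 of the 1849 intervals in the list, or 26.7% (exact 95% binomial interval 24.7 to 28.7). By the intron number in the annotation, 194 lay in intron 1 and 299 in later introns. The 493 intervals carried 547 summits, since 48 of them held more than 1.

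The assay was CUT&Tag, in which an antibody directs a transposase to cut and tag DNA beside the bound protein. The series has 2 samples with a CHD4 antibody and 2 with non-specific IgG, numbered as replicates 1 and 2 in each group, all labelled spermatogonial and from C57BL/6 mice, prepared from digested testes. No treatment, mutant allele, age or sorting step is given in the sources used here. All 4 samples enter through 1 deposited list that pairs CHD4 with IgG, so no interval has a value per sample, no difference has an error between replicates, and no comparison below was tested. Medians, shares and ranges describe this list. Exact intervals cover counting error only, and intervals in the same gene or close together are not independent.

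NuRD couples the remodelling of nucleosomes by CHD4 to the removal of acetyl groups from histones by HDAC1 and HDAC2. It is known from promoters and from enhancers, many of which lie in introns, and CHD4 is known to act in the maintenance of spermatogonial stem cells. An intron is named for a transcript, and a long mammalian gene often has several start sites, so intron 1 of one transcript can lie downstream of the start of another. The annotation gives a peak to a promoter class when it lies within 3 kb of a transcript start, before introns are considered. The members therefore all lie farther out, from 3.01 to 374 kb from the start they were assigned to.

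The RefSeq table of promoter windows used here, which is not complete, held 3 windows that an intronic interval overlapped, all of long non-coding RNA genes. The interval covered the start itself at 4930471E19Rik and Gm39084, and at Gm5546 it covered bases before the start and not the start. They are shown because they are the members for which sequence under the interval could be read. Each window runs 5′ to 3′ on the gene's strand, from 250 bases before the start to 50 after it, with bases inside the CHD4 interval in capitals (RefSeq, GRCm38.p6).
4930471E19Rik: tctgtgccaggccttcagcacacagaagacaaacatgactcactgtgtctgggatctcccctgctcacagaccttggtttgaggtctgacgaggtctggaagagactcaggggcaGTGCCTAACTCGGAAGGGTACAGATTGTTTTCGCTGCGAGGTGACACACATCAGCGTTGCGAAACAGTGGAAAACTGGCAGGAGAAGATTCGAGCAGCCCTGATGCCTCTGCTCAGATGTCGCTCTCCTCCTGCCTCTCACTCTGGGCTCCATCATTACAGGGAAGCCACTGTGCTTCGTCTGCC
Gm5546: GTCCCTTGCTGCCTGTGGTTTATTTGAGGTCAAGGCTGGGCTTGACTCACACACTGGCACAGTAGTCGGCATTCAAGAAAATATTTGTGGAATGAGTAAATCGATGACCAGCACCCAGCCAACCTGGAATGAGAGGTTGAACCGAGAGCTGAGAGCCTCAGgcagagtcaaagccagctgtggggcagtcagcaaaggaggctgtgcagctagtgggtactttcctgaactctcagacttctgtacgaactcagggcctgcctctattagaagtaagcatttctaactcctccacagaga
Gm39084: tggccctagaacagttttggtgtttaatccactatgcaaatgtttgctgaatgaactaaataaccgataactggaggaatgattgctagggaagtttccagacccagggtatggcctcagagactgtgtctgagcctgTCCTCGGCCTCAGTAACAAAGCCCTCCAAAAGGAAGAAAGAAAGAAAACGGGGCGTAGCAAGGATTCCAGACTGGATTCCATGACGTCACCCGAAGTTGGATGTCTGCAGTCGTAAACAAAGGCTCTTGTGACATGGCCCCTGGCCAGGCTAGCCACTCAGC
The 4930471E19Rik window is at chr10:120636058-120636357, the Gm5546 window at chr3:104360269-104360568 and the Gm39084 window at chr7:123098189-123098488, all on the minus strand.

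The Gm39084 window lies in intron 2 of 2 of a transcript of Tnrc6a, which encodes a scaffold protein of microRNA silencing. Its interval had a fold of 9.90, with 31 CHD4 fragments at the summit and an IgG expectation of 0.443. The fold is the caller's ratio of CHD4 to IgG at the summit. Here and below, CHD4 fragments are unscaled, while the IgG expectation is on the scale of the IgG library. Fragments given over an expectation are therefore not a ratio on 1 scale, and dividing them overstates the enrichment. For the fold, the caller scales the CHD4 fragments down and adds 1 to both sides. The interval at 4930471E19Rik had a fold of 6.31 from 45 fragments over 2.21, and that at Gm5546 a fold of 5.32 from 49 fragments over 3.14. Both of those lie in intron 1 of a transcript with no gene number in the annotation. The interval covered 185 bases of the 4930471E19Rik window, 161 of the Gm5546 window and 162 of the Gm39084 window.

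The motifs searched on both strands of these windows were TGANTCA (the AP-1 motif), TGACGTCA (the cyclic AMP response element), CANNTG (the E-box) and TATAAA (the TATA box). TGANTCA was found in the Gm5546 window, at position 43, inside the CHD4 interval, and in the 4930471E19Rik window, at position 36, outside it. It occurs in 7.81% of the 32851 promoter windows in the table. TGACGTCA was found in the Gm39084 window alone, at position 220 and inside the interval, and occurs in 1.79% of all windows. CANNTG was present in each of the 3 windows, inside the interval at 4930471E19Rik (position 229) and outside it at Gm5546 (175) and Gm39084 (37). It occurs in 72.3% of all windows, and no 2 matches overlapped. TATAAA was in none of the 3 and in 13.6% of all windows. The share of G and C was 55% in the 4930471E19Rik window, 50.7% in the Gm5546 window and 49.3% in the Gm39084 window, against a median of 52.7% over all windows. A match is a run of letters and not a binding site.

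Intron 1 held more intervals than any other intron number. It held 194 of the 493 (39.4%, 35 to 43.8), intron 2 held 91 (18.5%), intron 3 held 46 (9.33%), intron 4 held 30 and intron 5 held 32. Introns 6 and higher held 100 (20.3%). In 22 intervals the intron was the only one of its transcript, and these count as intron 1. Among the 471 intervals whose host transcript has 2 or more introns, 172 lay in intron 1 (36.5%, 32.2 to 41) and 42 in the last intron (8.92%). For scale, the mean of 100 divided by the number of introns in these transcripts was 14.8%, the share that intron 1 would take if all introns of a transcript held equal numbers.

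The share in intron 1 was above that equal share at every transcript size. It was 49.2% in transcripts with 2 to 5 introns (60 of 122), where the equal share was 32.8%. In transcripts with 6 to 10 introns it was 36.4% (47 of 129) beside 13.4%, and with 11 to 20 introns it was 32.9% (46 of 140) beside 7.03%. With more than 20 introns it was 23.8% (19 of 80) beside 3.19%. Intron lengths are not in the files used here, and their part in these shares was not tested.

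**Figure D1:**
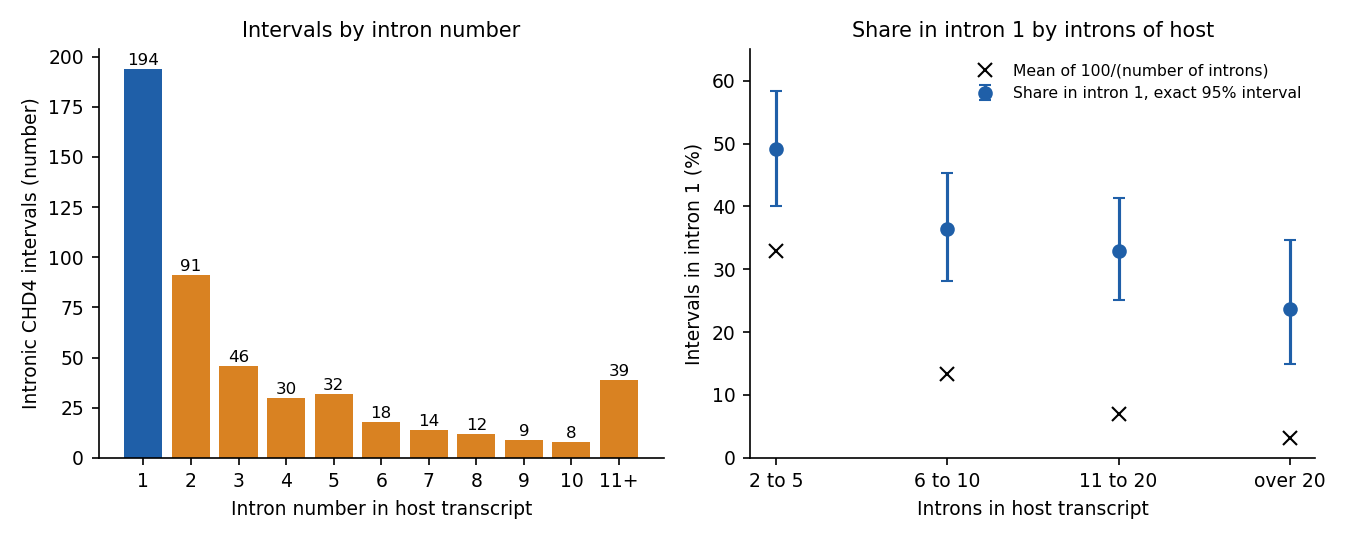
Left, number of intronic CHD4 intervals (y axis) by intron number in the host transcript (x axis), with intron 1 in blue and later introns in orange. Right, percent of intervals in intron 1 by the number of introns in the host transcript, with exact 95% intervals (points), beside the mean of 100 divided by the number of introns (crosses); the points run from 49.2% down to 23.8% and the crosses from 32.8% down to 3.19%.

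By the RefSeq boundaries of the host gene, intron 1 intervals did not all lie near its 5′ end. Where the host was also the named gene and the interval lay inside its boundaries, a position could be given for 148 intervals in intron 1 and 214 in later introns. The median position was 29.9% of the gene's length from its 5′ end in intron 1 (quartiles 15.8 and 47.7) and 55.4% in later introns (35.4 and 73.3). The distance to the assigned start had a median of 13.6 kb in intron 1 and 19.7 kb in later introns. More than 10 kb from that start lay 119 of 194 intervals in intron 1 (61.3%) and 218 of 299 in later introns (72.9%). More than 50 kb away lay 28 in intron 1 (14.4%) and 69 in later introns (23.1%).

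The strength of CHD4 signal in intron 1 and in later introns spread over much the same range. The median fold was 5.06 in intron 1 (quartiles 4.49 and 5.95) and 5.15 in later introns (4.38 and 6.10), a difference of -0.09. The median number of CHD4 fragments at the summit was 22 in intron 1 and 23 in later introns, and the median IgG expectation was 1 fragment in both. Fragment numbers were recovered from the caller's fold and −log10 p. A fold over 8 was reached by 9 intervals in intron 1 (4.64%) and by 14 in later introns (4.68%). More than 1 summit was found in 18 intervals of intron 1 (9.28%) and 30 of later introns (10.0%). The median width was 278 bp in intron 1 and 289 bp in later introns. Intron 2 had a median fold of 5.001, intron 3 of 4.97, and introns 4 and higher of 5.30, so no step by intron number exceeded the quartile range within a single intron number.

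A q under 0.01, with q the caller's own adjusted p, was reached by 390 of the 493 intronic intervals (79.1%), beside 77.7% over all 1849 intervals. The share was 79.9% in intron 1 (155 of 194) and 78.6% in later introns (235 of 299). These shares are near that of the whole list. The median −log10 q was 2.92 in intron 1, 2.87 in intron 2 and in intron 3, and 3.66 in introns 4 and higher.

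Intronic intervals had a higher fold, fewer CHD4 fragments and a lower IgG expectation than the rest of the list. The median fold was 5.13 over the 493 and 4.57 over the 1356 others (difference 0.56). It was 4.88 in the 457 distal intergenic intervals and 4.32 in the 631 promoter intervals within 1 kb of a start. The median number of CHD4 fragments was 23 in intronic intervals and 29 in the others, with 25 in distal intergenic and 34 in promoter intervals. The median IgG expectation was 1 fragment in intronic intervals and 2 in the others, with 1 in distal intergenic and 2.4 in promoter intervals. Fewer than 20 CHD4 fragments supported 172 intronic intervals (34.9%) and 302 others (22.3%). The median −log10 q was 2.92 in intronic intervals and 2.90 in the others.

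The gap in fold narrowed within bands of IgG expectation. Where the expectation was under 1 fragment, the median fold was 5.52 in 209 intronic intervals and 5.52 in 336 others. Between 1 and 2 fragments it was 5.22 in 138 intronic intervals and 4.93 in 338 others. At 2 fragments or more it was 4.19 in 146 intronic intervals and 3.91 in 682 others. Within this last band the expectations were not alike, with a median of 2.77 in intronic intervals and 4 in the others. The expectation was under 1 in 42.4% of intronic intervals and 24.8% of the others. At its lowest value in the list, 0.346, were 58 intronic intervals (11.8%) and 71 others (5.24%). Intronic intervals with an expectation under 1 had a median of 17 CHD4 fragments, and those at 2 or more had a median of 37. The fewest at any intronic summit were 12.

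**Figure D2:**
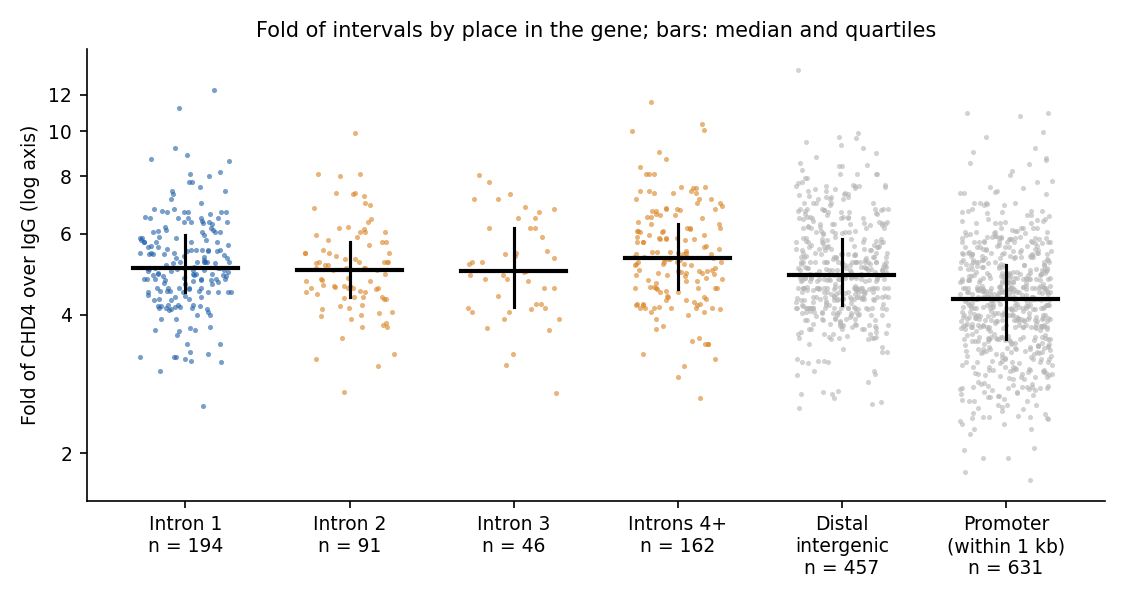
Fold of CHD4 over IgG (y axis, log scale) for each interval by its place in the gene (x axis), with intron 1 in blue, later introns in orange and 2 other classes in grey; black bars give the median and the quartiles. The medians of the intron groups lie between 4.97 and 5.30, that of distal intergenic intervals at 4.88 and that of promoters at 4.32.

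**Figure D3:**
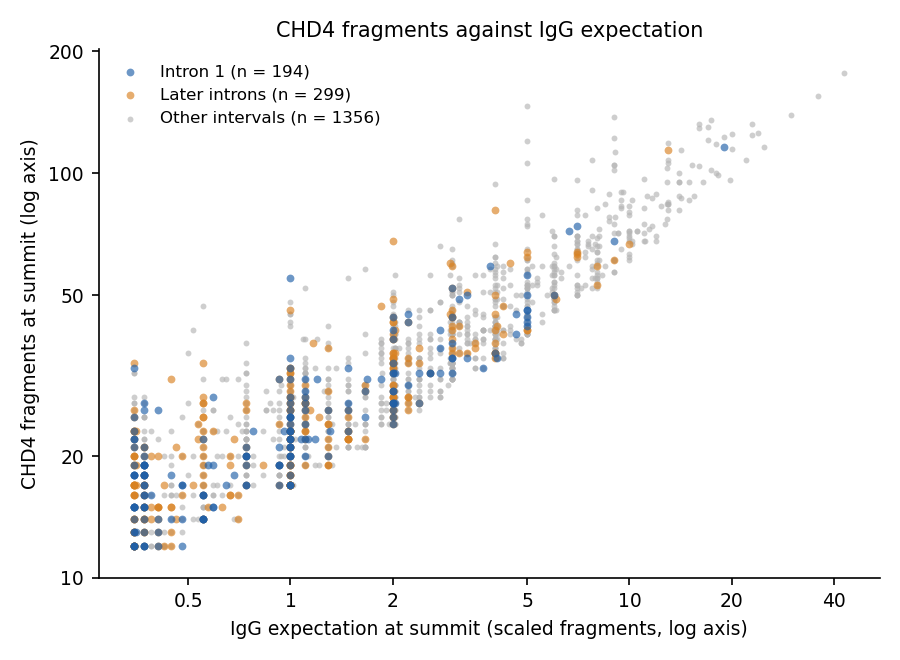
CHD4 fragments at the summit (y axis) against the IgG expectation there (x axis), both on log scales, for intron 1 (blue), later introns (orange) and all other intervals (grey). CHD4 fragments are unscaled, and the expectation is on the scale of the IgG library. Intronic intervals sit mostly at the lower left, with a median of 23 fragments and a median expectation of 1. Blue and orange points overlap throughout.

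Kdm1a had the highest fold of the intronic intervals. Its product LSD1 removes methyl groups from lysine 4 of histone H3 and can work with NuRD. The interval, in intron 1 of 18 at chr4:136598368-136598954 (mm10), had a fold of 12.3. At its summit 55 CHD4 fragments were recovered (95% Poisson interval, exact, 41.4 to 71.6) over an IgG expectation of 1. The interval lay 3.35 kb from the assigned start. Tcf4, an E-protein transcription factor, followed in intron 6 of 6 with a fold of 11.6 from 34 fragments over 0.346. Lamc1, the laminin gamma 1 chain, had a fold of 11.3 in intron 1 of 27 (chr1:153292283-153292684), from 33 fragments over 0.346. Msi2, an RNA-binding protein of stem cells, had a fold of 10.4 in intron 6 of 13 (chr11:88495755-88496299), from 46 fragments over 1, at 93.8 kb from the assigned start. The interval for its fragments, 33.7 to 61.4, overlaps those of the 3 before it.

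Ksr2, a scaffold of the Ras to ERK cascade, held the interval with the most CHD4 fragments among the 12 highest folds. It lies in intron 5 of 20 at chr5:117659582-117660098, with a fold of 10.1 from 68 fragments (52.8 to 86.2) over an expectation of 2. Adamtsl3, a matrix protein, had a fold of 10.0 in intron 15 of 29, from 34 fragments. Epb41l2, a membrane skeleton protein, had 9.18 in intron 1, Slc36a3, of an amino acid transporter family, had 9.03 in intron 9, and Ncoa7, a nuclear receptor coactivator, had 8.87 in intron 1. Dmd, the dystrophin gene, and 2700054A10Rik, an uncharacterised long non-coding RNA, both had 8.71, in introns 63 and 1. Of the 12 highest folds 5 lay in intron 1, 5 had the lowest IgG expectation of the list, and in 11 the expectation was 1 or less. By −log10 q, Ksr2 and Kdm1a came first, both at 18.1. Best3, a bestrophin chloride channel, followed with 14.8, from 81 fragments over 4 in intron 4 of 9 and a fold of 7.14.

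The largest intron numbers were 63 of 78 in Dmd, 39 of 47 in Ptpn13, a tyrosine phosphatase, and 35 of 66 in Wdfy3, an autophagy scaffold. Their folds were 8.71, 8.37 and 5.15.

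Most host genes held a single interval. The 452 intervals whose annotation gives a host gene number lay in 381 genes, of which 332 held 1, 35 held 2 and 14 held 3 or more. These 14 genes held 50 intervals, and in 6 of them the annotation put all intervals in 1 intron. Galnt2 and 1600010M07Rik are among the 6, and their intervals lay outside the RefSeq boundaries of these genes, as given below. With intervals outside their host's boundaries left out, 11 genes held 3 or more. Among intervals with 20 or more CHD4 fragments, 6 genes held 3 or more. Of all intronic intervals, 69 had another within 10 kb.

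Dlgap1, a scaffold of the postsynaptic density, held 6, all in intron 8 of 13 and within 27 kb, in a gene of 852 kb. Their folds ran from 2.64 to 6.13. The strongest by fragments had 114 over an IgG expectation of 13, a fold of 3.56, and the weakest had 17 over 0.997. Rab31, a small GTPase of membrane traffic, held 4 with folds from 3.70 to 7.43, of which 1 lay in intron 1. Creb3l2, a transcription factor anchored in the endoplasmic reticulum, held 4 with folds from 4.87 to 6.19, of which 3 lay in intron 1. Etv6, a repressor of the ETS family, held 4 with folds from 3.16 to 5.22 across 162 kb. Its 4 intervals fell in introns 1, 2 and 5, and the lowest fold was that in intron 1.

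Ctif, a factor of cap-dependent translation, held 4 in introns 6 and 9 with folds from 3.78 to 6.99. Nsmce2, a SUMO ligase of the SMC5/6 complex, held 4 with folds from 3.29 to 6.05. Lamc1 and Filip1l each held 3 in intron 1. The Lamc1 folds were 4.49, 5.36 and 11.3, from 12, 24 and 33 fragments over IgG expectations of 0.369, 1.107 and 0.346. The Poisson intervals of the 24 and 33 fragments, 15.4 to 35.7 and 22.7 to 46.3, overlap. The Filip1l folds were 4.67, 4.787 and 7.31, and all 3 intervals also lay within Cmss1. Pakap, a joint gene of the paralemmin Palm2 and the kinase anchor Akap2, held 3 in intron 7, with folds from 4.88 to 7.34. Tafa5, a secreted chemokine-like protein, Tns3, a focal adhesion protein, and Pvt1, a long non-coding RNA beside Myc, held 3 each. Their folds ran from 4.17 to 7.23 in Tafa5, from 4.19 to 6.68 in Tns3 and from 3.46 to 6.16 in Pvt1.

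**Figure D4:**
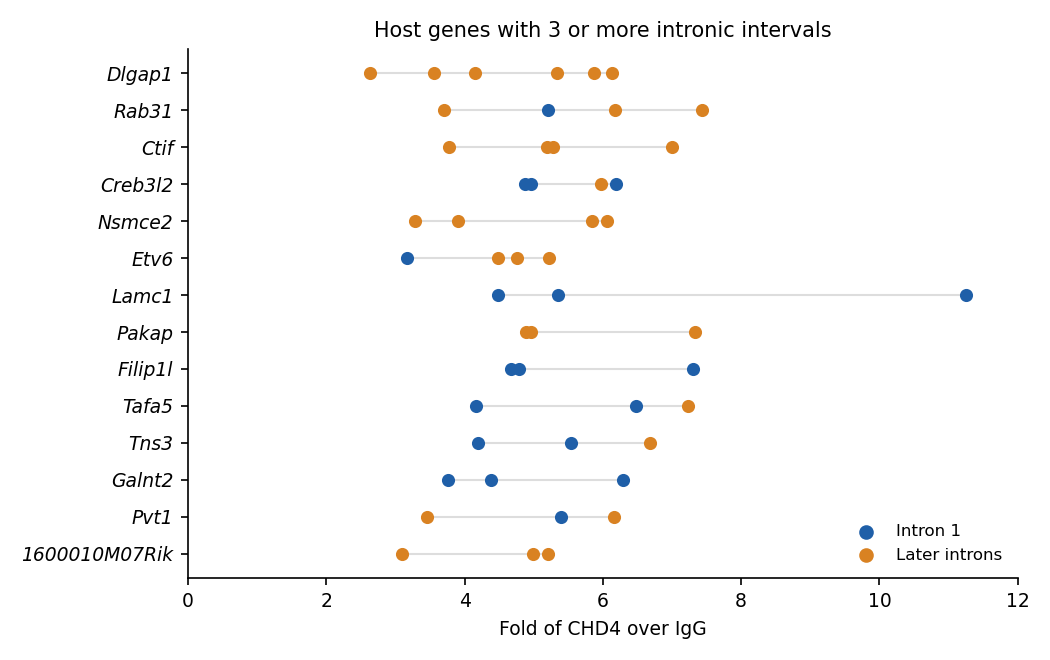
Fold of CHD4 over IgG (x axis) of each intronic interval in the 14 host genes with 3 or more, 1 gene per row, with intron 1 in blue and later introns in orange. Folds lie between 2.64 and 7.43 except for 1 Lamc1 interval at 11.3. Hosts are as annotated. All intervals of Galnt2 and 1600010M07Rik and 1 of Pvt1 lay outside the RefSeq boundaries of the gene.

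Intervals in both intron 1 and a later intron were found in 12 host genes, with 33 intervals. The highest fold lay in intron 1 in 3 of the 12 genes. These were Arhgap10, a GTPase-activating protein, with 5.43 in intron 1 and 5.22 in intron 3, Creb3l2, with 6.19 in intron 1 and 5.97 in intron 5, and Wt1os, an antisense RNA gene at Wt1, with 5.64 in intron 1 and 3.92 in intron 3. In the other 9 it lay in a later intron. They were Bcar1, Etv6, Phldb2, Prickle2, Pvt1, Rab31, Septin11, Tafa5 and Tns3. In Tns3 the folds were 5.54 and 4.19 in intron 1 and 6.68 in intron 3. These ranks go by fold alone. In Pvt1 the highest fold, 6.16 in intron 2, came from 17 fragments over 0.346, while intron 1 had 59 over 3.876 and a fold of 5.39. In Arhgap10 intron 1 had 15 fragments over 0.369 and intron 3 had 22 over 1. Their Poisson intervals, 8.40 to 24.7 and 13.8 to 33.3, overlap.

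The host of an intronic interval was the gene named for it in 370 of 493 cases (75.1%, 71 to 78.8). For 41 intervals the annotation gives a transcript with no gene number, so a match could not occur. Of the 452 with a number, 370 matched (81.9%, 78 to 85.3). With a number, the match was 151 of 167 in intron 1 (90.4%, 84.9 to 94.4) and 219 of 285 in later introns (76.8%, 71.5 to 81.6). Hosts without a number were 27 of 194 in intron 1 (13.9%) and 14 of 299 in later introns (4.68%). Over all intervals, those without a number included, the match was 77.8% in intron 1 and 73.2% in later introns.

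Where host and named gene were the same, 323 of 370 intervals (87.3%) were placed in one transcript and measured to the start of another. In 125 of the 370 (33.8%) the interval lay upstream of the assigned start, which is then a start inside the gene. Tcf4, at 14.9 kb upstream, and Adamtsl3, at 77.3 kb upstream, were among them.

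In 82 intervals the host and the named gene differed, and in 80 of these the named transcript did not overlap the interval. The median distance to the named start was 25.4 kb in these 82 and 15.3 kb in the 370 that matched, while the median fold was 5.06 in these 82 and 5.14 in the 370. The strongest was the Ksr2 interval, named for Nos1, the neuronal nitric oxide synthase, whose start lies 182 kb away. The next were in Ptpn13, named for the transporter Slc10a6 (fold 8.37), in Gnaq, a G protein alpha subunit, named for the microRNA gene Mir496b (8.09), and in Masp1, a protease of the complement system, named for Rtp4 (8.07). Tnik, a kinase of Wnt signalling, was the host of an interval named for the microRNA gene Mir466q (7.43). Rab31, described above, held 1 of the same fold. Plcb1, a phospholipase C, held 1 named for 9630028H03Rik (7.36). Of the 4 Rab31 intervals, 3 were named for Txndc2, a thioredoxin of spermatids, and the Pakap intervals were named for Akap2. A microRNA gene was the named gene in 13 of the 82. The farthest named start was that of the transcription factor gene Maf, 374 kb from an interval in intron 8 of Wwox, with a fold of 7.14.

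The host label itself went against the gene table in 23 intervals of 19 genes, 7 of them in intron 1. These intervals lay outside the RefSeq boundaries of their host, while 429 of 452 (94.9%) overlapped it. The 3 intervals given to intron 1 of 15 of Galnt2, an enzyme of O-linked glycosylation, span 1415 kb, although the gene is 114 kb long. They lay 1575, 2646 and 2989 kb from it and were named for Cbfa2t3, Map1lc3b and Foxl1, with folds of 6.29, 4.38 and 3.76. The first of these lay within Cbfa2t3. The 3 intervals given to intron 2 of 3 of 1600010M07Rik, a gene of 8.27 kb, lay 102 to 110 kb from it and were named for Wee1, a kinase that restrains entry into mitosis. The 2700054A10Rik interval, of fold 8.71, lay 103 kb outside that gene. The Pvt1 interval in intron 6, of fold 3.46, lay 68.2 kb outside, and an interval on Y was given to Erdr1, which the table places on X.

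Host genes were long. The 361 protein-coding hosts had a median length of 114 kb (quartiles 56.7 and 223), against 17.2 kb over all 21775 protein-coding genes. They make up 1.66% of those genes. The share of genes that hosted an interval was 0.0636% under 10 kb, 0.467% from 10 to 30 kb, 2.35% from 30 to 100 kb, 7.86% from 100 to 300 kb and 10.8% over 300 kb. A longer gene offers more sequence to hold an interval. Peaks within 3 kb of a transcript start are not members, and this takes up a larger part of a short gene. The part of these 2 in the rise with length was not tested. Per length the order was different. There were 0.621 intervals per Mb in genes of 100 to 300 kb (188 intervals) and 0.232 per Mb in genes over 300 kb (74 intervals). Genes of 30 to 100 kb held 0.460 per Mb, those of 10 to 30 kb 0.269 and those under 10 kb 0.155. The median host length was 114 kb for intervals in intron 1 and 130 kb for those in later introns.

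**Figure D5:**
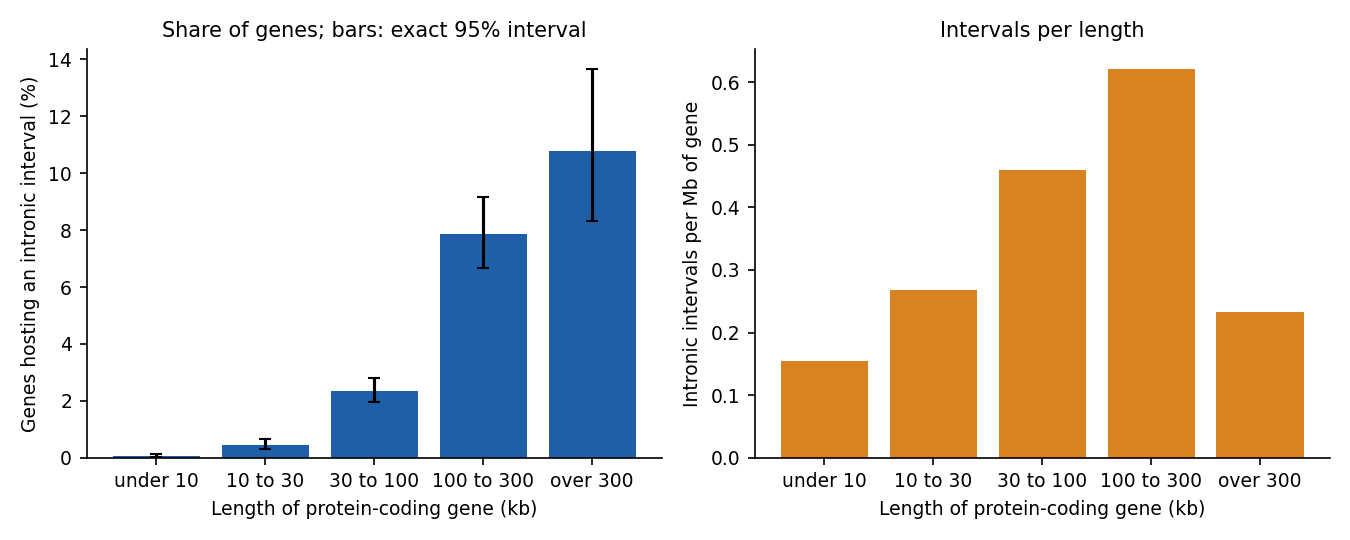
Left, percent of protein-coding genes that host an intronic CHD4 interval (y axis) by gene length (x axis), with exact 95% intervals, from 0.0636% under 10 kb to 10.8% over 300 kb. Right, intronic intervals per Mb of gene, with the highest value, 0.621, in genes of 100 to 300 kb and 0.232 in genes over 300 kb.

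Of genes for focal adhesion, matrix and actin, 13 of 67 hosted an intronic interval (19.4%), beside 1.66% of all protein-coding genes and 7.86% of those from 100 to 300 kb. The median length of this list was 104 kb. The 13 genes held 19 intervals, 10 of them in intron 1. Itgb5, an integrin beta chain, had a fold of 8.64 in intron 1 of 14, from 26 fragments over 0.406. Col4a2, a collagen of basement membranes, had 2 in intron 4 with folds of 6.72 and 2.92, from 29 and 59 fragments over 1 and 8. Its partner chain Col4a1 had a fold of 4.62 in intron 2, and Col18a1 had 6.20 in intron 2. Sorbs2, an adaptor of the actin cytoskeleton, had a fold of 6.48 in intron 1, and Actn1, an actin cross-linker, had 4.001 there. Tns1, like Tns3 a tensin of focal adhesions, had 5.43 and 2.70, both in intron 3. Myh9, a non-muscle myosin, had 4.11, Trio, a guanine nucleotide exchange factor, 4.05, and Diaph1, a formin that nucleates actin, 3.72. This list and those below were chosen with earlier results of these data known, so their counts are not independent evidence.

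Of synapse genes and other very long genes, 8 of 65 were hosts (12.3%), in a list with a median length of 879 kb, beside 10.8% of all protein-coding genes over 300 kb. Besides Dlgap1, Tcf4, Dmd and Wwox these were Nkain2 with a fold of 7.11, Adgrl3 with 5.64, Ctnna3 with 5.51 and Nfib with 5.05. Growth factor, MAPK and PI3K signalling genes were hosts in 5 of 68 cases (7.35%, exact interval 2.43 to 16.3, median length 72 kb). The share was 1.66% over all protein-coding genes and 2.35% over those from 30 to 100 kb. Spred2, an inhibitor of Ras to ERK signalling, had a fold of 6.68 in intron 1 of 6, and Prkca, a protein kinase C, had 6.93 in intron 2 of 16, an interval named for Apoh. Gab1, a docking protein of receptor kinases, had 5.22 in intron 1, and Map3k1, a kinase kinase kinase, had 5.06 in intron 1. Igf1r, the insulin-like growth factor receptor, had 4.33 in intron 2.

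Chromatin regulator genes were hosts in 4 of 78 cases (5.13%, exact interval 1.41 to 12.6, median length 82 kb). That interval holds both the 1.66% of all protein-coding genes and the 2.35% of those from 30 to 100 kb. Besides Kdm1a, Arid5b, a DNA-binding partner of a histone demethylase, had a fold of 7.54 in intron 4. Arid1b, a subunit of the BAF remodelling complex, had 4.49 from 12 fragments in intron 1. Among 22 genes of the NuRD and LSD1 complexes Kdm1a was the single host (4.55%, exact interval 0.115 to 22.8), beside the same 1.66% and, at this list's median length of 31.4 kb, the same 2.35%.

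Host counts in the lists of germ cell genes were too small to be told from the share over all genes. No gene of the list for spermatogonial stem cells and undifferentiated spermatogonia was a host (0 of 33, exact interval up to 10.6%), nor of the lists for spermatogonial differentiation (0 of 15, up to 21.8%) or spermatids and sperm (0 of 30, up to 11.6%). At the 1.66% of all protein-coding genes, lists of this size can be empty, and their median lengths were short, at 14.1, 22.6 and 10.8 kb. Of all protein-coding genes from 10 to 30 kb, 0.467% were hosts. Of 42 meiosis and piRNA genes 1 was a host (2.38%, exact interval 0.0603 to 12.6). The median length of that list was 39.4 kb, and 2.35% of all protein-coding genes from 30 to 100 kb were hosts. The host was Tex14, a protein of the intercellular bridges of germ cells, with a fold of 7.99 in intron 2 of 30 (chr11:87442740-87442969). Of 44 marker genes of other testis cells 1 was a host (2.27%), Gata4, a transcription factor of Sertoli cells, with 5.74 in intron 2. Of 28 apoptosis and p53 genes (median length 22.1 kb) 1 was a host (3.57%, exact interval 0.0904 to 18.3), Bcl2l1, the gene of the anti-apoptotic protein BCL-XL. It held 2 intervals in intron 2 of 2, with folds of 4.33 and 3.99, and the second was named for Cox4i2. A list of bound places holds no expression values, so the labelled cell type could not be checked against its markers.

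An interval at the promoter of the same gene accompanied the intronic one in 26 of the 361 protein-coding hosts (7.20%), beside 2.56% of all protein-coding genes with a promoter interval. The 2 shares are not matched for gene length, which had a median of 114 kb in hosts and 17.2 kb over all genes. The part of length in this difference was not tested. The median of the highest intronic fold in these 26 genes was 5.37, and that of the highest promoter fold was 4.64. The intronic fold was the higher in 18 of the 26. These 18 include Rasgef1b, whose intronic interval lay 273 kb outside the RefSeq boundaries of the gene. At Tex14 the folds were 7.99 in the intron and 4.32 at the promoter, at Tns3 6.68 and 4.31, at Gata4 5.74 and 3.54, and at Gab1 5.22 and 3.06. At Septin11, a cytoskeletal GTPase, they were 5.30 and 4.92. Over the whole list the promoter intervals had a median fold of 4.32 over a median IgG expectation of 2.4, and the part of the IgG expectation in these pairs was not tested. The promoter fold was the higher at Camkk2, a calcium-dependent kinase, with 3.70 in the intron and 6.34 at the promoter.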

How the data were processed

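Per the submitters' processing notes, the tools were MACS2 2.1.2, Bowtie2 2.2.5 and Trim Galore 0.5.0, on mm10. The sources used here do not give how duplicate reads were handled or how replicates were combined. Per the file headers, the authors deposited 1 list of 2066 summits with a fold (a ratio of CHD4 to IgG) and its log2. The deposited −log10 p and −log10 q have lost their headers and were identified by column order, and the deposited score is 10 times −log10 q. The largest q was 0.0492. Values of a first peak stand in place of some headers, and that peak was not analysed here. Other columns give widths and distances in bases.

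Rows with an intron annotation were joined by boundaries, and each interval took the fold of its summit of highest fold; a q is the best of its summits. Host transcript, gene number and intron number were read from the annotation, and gene names and lengths from a RefSeq table of GRCm38.p6, which has the coordinates of mm10; genes that start before 3 Mb on chromosomes other than Y were left out of gene counts. Fragments were recovered from fold and −log10 p on the caller's Poisson model (1 added to both sides), with a scale of 0.429 that solved all 2066 summits within 0.0005. The recovery was also run on data simulated from that same model. Such data check the arithmetic and cannot show whether the model holds for the deposited list. The scale multiplies the CHD4 fragments, and the IgG expectation stays on the scale of the IgG library. By that scale the CHD4 fragments were 2.33 per IgG fragment over the whole library. No test across samples was possible. Named genes were the hosts of the 12 highest folds, of the 6 highest −log10 q, of 3 or more intervals, of both intron 1 and later introns, of the 3 highest intron numbers, list members, and the 8 highest folds with another named gene. Some list members that this rule names are not reported here. Members and lists were chosen with earlier results of these data known. Python 3.11.15 with pandas 2.3.3 and scipy 1.17.1 was used.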

Additional observations from a re-analysis of the deposited data

How the results depend on the processing

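No paired analysis was possible because the deposited list has no value for any single sample. Across summits in place of intervals, a q under 0.01, 20 or more CHD4 fragments, 1 interval per locus of 10 kb, small structured RNA genes left out, hosts with 2 or more introns and more than 5 kb from the named start, the share in intron 1 stayed between 36.5 and 39.7% and the difference in fold between intron 1 and later introns between -0.240 and -0.00298. Of 64 alternative values over all results, 7 moved, and these follow. With −log10 q in place of fold, which is another scale, the medians of intronic and other intervals differed by 0.0202 (2.92 and 2.90), so the difference seen in fold was not seen in −log10 q. With 20 or more CHD4 fragments, the fold of intronic over other intervals differed by 0.73, and 90.3% of intronic intervals had a q under 0.01; the filter itself removes the intervals of fewest fragments. With intervals that lack a host gene number left out, the host was the named gene in 81.9%. Host genes with 3 or more intervals, 14 in the report, were 8 with a q under 0.01, 6 with 20 or more fragments and 7 with 1 interval per locus, since fewer intervals enter. The settings on host boundaries, host number and 1 interval per host gene, and all those on the counts of hosts and of list members, were chosen after seeing the data. Depth limits single intervals: 172 of 493 rested on fewer than 20 CHD4 fragments, and none has a replicate check.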

Other observations

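Long non-coding RNA genes overlapped some of the intronic intervals beside the host. Of the 493, 47 (9.53%) overlapped such a gene of the table other than their host, 14 overlapped another protein-coding gene, and 2 overlapped a transfer RNA gene. The highest fold with such an overlap was 9.90, at Gm39084 within Tnrc6a, and the Tex14 interval of fold 7.99 overlapped the long non-coding RNA gene LOC115487798. Of the 452 intervals with a host gene number, 25 had a long non-coding RNA gene as host, among them Pvt1 and Wt1os.

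Chromosome 19 held 12 intronic intervals, 0 in intron 1 and 12 in later introns, while chromosome 8 held 17 in intron 1 and 14 in later introns. Chromosome 7 held 6 in intron 1 and 28 in later introns. The X chromosome held 8 intronic intervals (1.62% of all intronic ones) and 11 others (0.811% of all others). These counts were noticed in the data and not tested.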
